A study of Mus musculus with 36 samples.

Results

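The translation initiation and elongation factor genes were the genes of 2 count tables whose symbol begins with Eif or Eef and a digit, leaving out the Y-linked Eif2s3y and rows that join several symbols. They numbered 57 of 12580 genes listed at steady state and 57 of 12403 genes listed for the comparison with lipopolysaccharide (LPS), and 52 and 54 of them passed the filter on low counts and were tested. The members not tested in either table were Eif1ad, Eif2s2 and Eif4e3, and Eef2k and Eif1a were tested only in the second table. Cap-dependent translation starts when the eIF4 factors bind the 5′ cap of an mRNA, eIF2 brings the initiator tRNA, and eIF3 with eIF1, eIF1A and eIF5 guides the small ribosomal subunit to the start codon. The eEF1 factors then deliver each aminoacyl-tRNA, and eEF2 moves the ribosome along the message. Inhibitory proteins (the 4E-BPs) and kinases of eIF2 slow initiation under stress and infection, and several of the factors and most ribosomal proteins are encoded by mRNAs with a terminal oligopyrimidine (TOP) tract, whose translation depends on the mTOR kinase.

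The RNA came from half-brain homogenates of Ribo-tag mice, in which Cre adds an HA tag to the ribosomal protein Rpl22, so that ribosomes of the Cre-expressing cells can be precipitated with their mRNA. Cre was split between 2 drivers. The Sall1 line carried CX3CR1-CCre+/-, Sall1-NCre+/- and Ribo-tag+/-, which places the tag in microglia, and the Lyve1 line carried CX3CR1-CCre+/-, Lyve1-NCre+/- and Ribo-tag+/-, which places it in macrophages at the borders of the brain. Each group was either precipitated with anti-HA antibody (HA) or with control IgG, which recovers background RNA of the tissue. Each line gave 6 HA and 6 IgG libraries at steady state, and Lyve1 mice gave 4 of each 12 h after 2.5 mg/kg LPS, a bacterial cell wall component. In all, 36 samples fell into 8 groups, and 2 of these groups, the Sall1 mice given LPS with 2 libraries per antibody, were not analysed here. The age of the mice is not given in the labels used here.

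Library totals ranged from 362063 counts (LPS IgG library 1-2) to 1696679 counts, and the members took between 0.94% and 1.24% of the counts of a library. Libraries are named by the 2 numbers of their column. The labels do not say whether a group's libraries are from different animals, or which HA and IgG libraries came from one brain, so they were compared as unpaired and the p-values may measure technical spread. The labelled cell types were checked against marker lists. All 9 tested microglial markers passed as higher in Sall1 HA than in Sall1 IgG (median log2 ratio 2.46), and all 3 tested markers of border macrophages passed as higher in Lyve1 HA than in Lyve1 IgG (median 2.46), among them Pf4 (3.84 ± 0.43, standard error). Only 3 of the 8 listed border macrophage markers passed the filter on low counts. In Lyve1 HA, 5 of 9 tested microglial markers were also higher than in IgG (median 0.80). In Sall1 HA, 1 of the 3 tested border macrophage markers was higher than in IgG (median 0.42). The 8 neuronal markers summed to between 4299 and 5559 CPM (counts scaled to a common library total) in the steady-state HA libraries and to between 5211 and 7021 CPM in IgG, so HA libraries held RNA of other brain cells, and the part of that RNA in the levels below was not tested. In these bulk precipitates, fewer cells of a type and less RNA per cell cannot be told apart. Counts of the Y-linked genes Ddx3y and Eif2s3y summed to between 29 and 63 in the Sall1 libraries whose first number is 1 or 2 and to at most 2 in those whose first number is 3. In the Lyve1 line they summed to at most 4 in each steady-state library and to between 15 and 60 in each library after LPS, so LPS and the Y-linked signal cannot be told apart in that line.

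Sequences around the start of transcription are shown for some of the genes that later differ with LPS. RefSeq (build GRCm38.p6) gave promoters for 46 of the 57 members, and Eif3e, Eef1d, Eif4ebp1 and Eif4ebp3 are among the 11 without one. Each line holds 15 bases before and 15 bases from the annotated start, 5′ to 3′ on the strand of the gene, and capitals mark any C followed by at least 4 C or T bases, the letters of a TOP tract.
Eef1a1 (chr9:78481710-78481739, minus strand): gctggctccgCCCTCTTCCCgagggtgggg
Eef1b2 (chr1:63176816-63176845, plus strand): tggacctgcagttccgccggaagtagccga
Eif4a2 (chr16:23107453-23107482, plus strand): ccgcggaaaccccgtaggagcagggcggcc
Eif3m (chr2:105017013-105017042, minus strand): ttttccggtcggcgtgtttctggatcggag
Eif4b (chr15:102073758-102073787, plus strand): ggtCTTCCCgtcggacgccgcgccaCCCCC
Of these 5 windows, those of Eef1a1 and Eif4b held such a run. Windows of other members that differ with LPS are not shown, some with a run (Eif4g1, Eef1a2) and some without (Eif5, Eif2a). Such a run was present in the window of 21 of 61 annotated starts of members (34.4%), against 36.4% of all 32851 starts in the table. Annotated starts need not be those used in these cells. For Eif2ak2, the gene of the double-stranded RNA-activated eIF2 kinase PKR, the 30 bases that hold the letters GAAA, any 2 bases and GAAA again, the core of an interferon-stimulated response element, are shown with the match in capitals.
Eif2ak2 (chr17:78882535-78882564, minus strand): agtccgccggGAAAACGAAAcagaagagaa
The match began at base 19 of the annotated transcript. Searched on both strands of the 300-base promoters, these letters were found in 3 of 61 member promoters (4.92%, those of Eif2ak2, Eif2s3x and Eif3a) and in 3.44% of all promoters. A match describes the letters and does not show a site in use.

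Setting HA against IgG asks which factor mRNAs were enriched on tagged ribosomes over the background of the brain. In the Sall1 line, 8 of 52 tested members passed (edgeR quasi-likelihood test, adjusted p under 0.05), 4 higher and 4 lower in HA, against a background of 9.8% of all genes tested (4.81% higher and 4.99% lower). Their median log2 ratio was 0.03, against -0.01 for all genes. In the Lyve1 line, 18 of 52 members passed, 10 higher and 8 lower, against a background of 25.7% (11.7% higher and 14% lower). The median ratio of the members was 0.09 there, against 0.01 for all genes. Counts for role classes and other gene lists below are to be read against these shares, and no class or list was tested as a set.

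**Figure D1:**
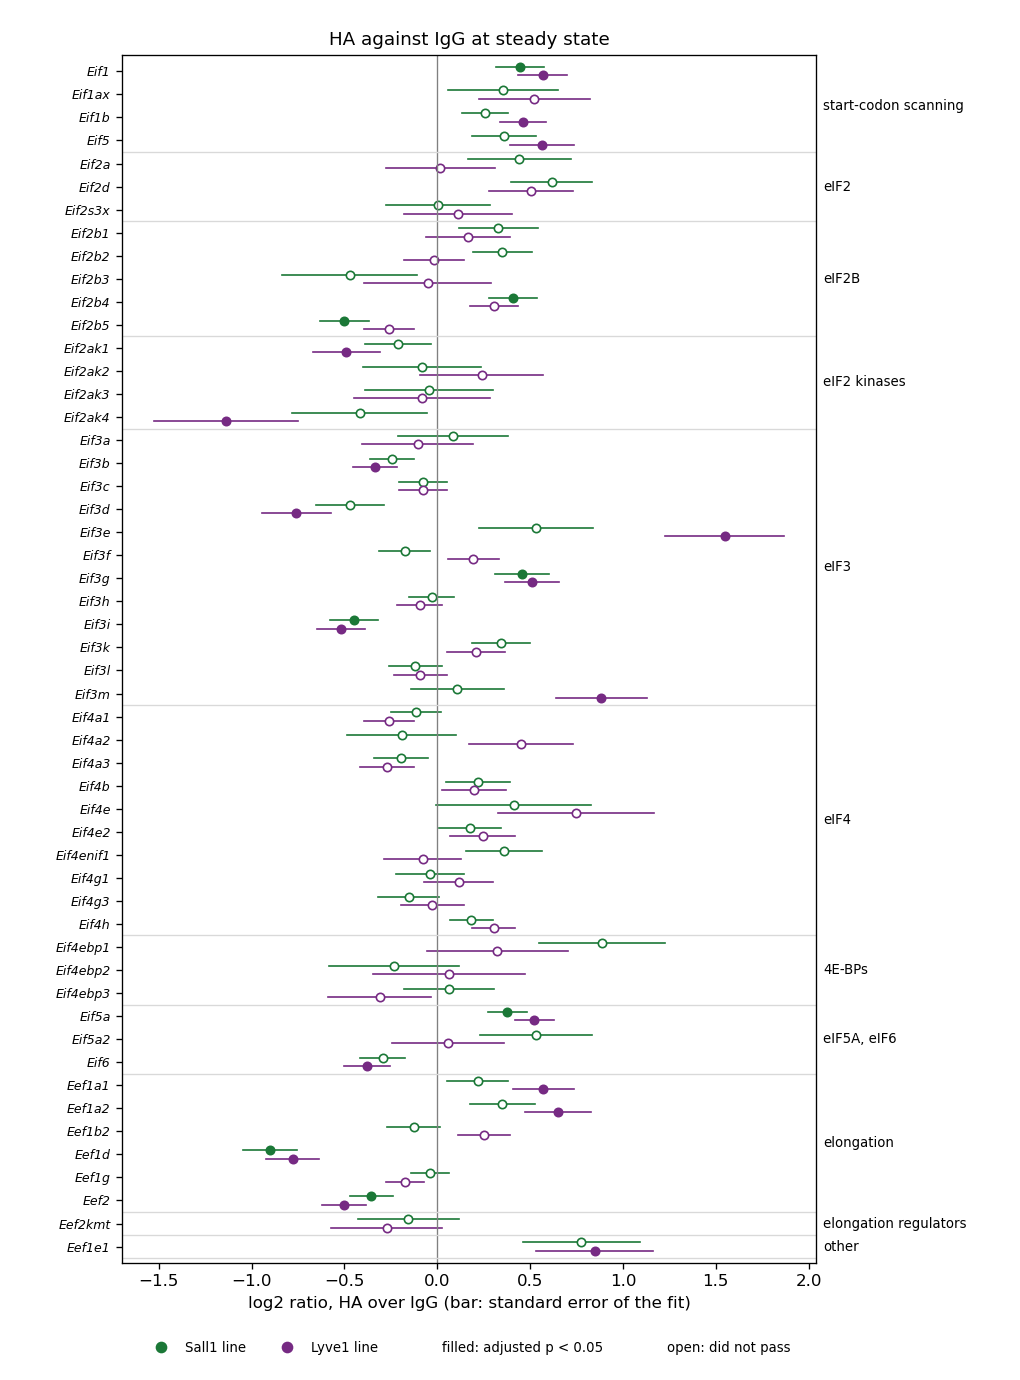
Log2 ratio of HA over IgG at steady state for the 52 tested members, grouped by role, in the Sall1 line (green) and the Lyve1 line (purple), with bars for the standard error of the fit and filled points for an adjusted p under 0.05. Eef1d, Eef2 and Eif3i lie left of zero and Eif1, Eif5a and Eif3g right of it with filled points in both lines, and Eif3e of the Lyve1 line is the point farthest to the right (1.55).

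Among the elongation factors, Eef1d, the nucleotide exchange subunit delta of eEF1, was lower in HA in both lines. In the Sall1 line it ranged from 97.9 to 176 CPM in HA (median 127.7) and from 185 to 332 CPM in IgG (median 241.9). In the Lyve1 line the range was 119 to 151.5 CPM in HA (median 139.3) and 197 to 277 CPM in IgG (median 231.8). The groups did not overlap in either line. The log2 ratios were -0.90 ± 0.14 (adjusted p = 7.62e-05) and -0.78 ± 0.14 (adjusted p = 0.000197), and no library left out ended either call.

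Eef2, the translocase, was also lower in HA. It stood at 1437 to 1974 CPM (median 1648) in Lyve1 HA and 2023 to 2727 CPM (median 2338) in Lyve1 IgG, without overlap, and at 1413 to 2175 CPM (median 1739) against 1842 to 2641 CPM (median 2280) in the Sall1 line, where the ranges overlapped. The log2 ratios were -0.50 ± 0.12 (adjusted p = 0.00192) in the Lyve1 line and -0.35 ± 0.12 (adjusted p = 0.0488) in the Sall1 line. The Sall1 call was lost without Sall1 HA library 1-1, 1-2 or 2-2 or Sall1 IgG library 1-1, 1-2 or 3-1 (-0.37 to -0.31, adjusted p from 0.0634 to 0.109).

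The 2 genes for eEF1A, the carrier of aminoacyl-tRNA, were higher in Lyve1 HA. Eef1a1, the form of most tissues, ranged from 334 to 532 CPM in HA (median 463.5) and from 227 to 363.5 CPM in IgG (median 300.3), and the ranges overlapped. Its log2 ratio was 0.57 ± 0.16 (adjusted p = 0.00988), and that of Eef1a2, the form of neurons and muscle, was 0.65 ± 0.18 (adjusted p = 0.00763). Eef1a2 ranged from 1455 to 2229 CPM in HA (median 1956) and from 754 to 1599 CPM in IgG (median 1295). Of 8 neuronal markers, 1 was higher and 2 were lower in Lyve1 HA than in IgG, and their part in the Eef1a2 ratio was not tested. In the Sall1 line neither gene passed (0.22 ± 0.16, adjusted p = 0.449, and 0.35 ± 0.18, adjusted p = 0.224). There Eef1a1 lay at 193 to 470 CPM in HA (median 304.2) and 223 to 325 CPM in IgG (median 271.3), and Eef1a2 at 1307 to 2668 CPM (median 2029) and 1060 to 1774 CPM (median 1560). Eef1g and Eef1b2, the other subunits of the exchange complex, did not pass in either line.

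The 12 tested eIF3 subunits, which form the scaffold on the small ribosomal subunit, split by direction. In the Lyve1 line, 3 were higher (Eif3e, Eif3m, Eif3g) and 3 lower (Eif3d, Eif3i, Eif3b) in HA. Eif3e ranged from 22.6 to 59.8 CPM in HA (median 30.33) and from 8.07 to 13.5 CPM in IgG (median 12.01). All 6 HA libraries lay above all IgG libraries, and the log2 ratio was 1.55 ± 0.32 (adjusted p = 0.000638), which rests on 20 to 51 counts in each library of HA and 12 to 19 in each of IgG. Eif3m, another subunit, ranged from 32.3 to 56.4 CPM in HA (median 42.05) and from 17.99 to 31.2 CPM in IgG (median 23.83), also without overlap (0.88 ± 0.24, adjusted p = 0.00763). In the Sall1 line these subunits overlapped between HA and IgG, with Eif3e at 0.53 ± 0.31 (adjusted p = 0.302) and Eif3m at 0.11 ± 0.25 (adjusted p = 0.84). Sall1 HA held 16.4 to 32.1 CPM of Eif3e (median 23.32) and Sall1 IgG 7.01 to 33.9 CPM (median 13.06).

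Eif3d, a subunit that can bind the cap, had the lowest ratio of the eIF3 genes in the Lyve1 line, at 191 to 293 CPM (median 212.0) against 324 to 419 CPM (median 386.1) in IgG, without overlap (-0.76 ± 0.19, adjusted p = 0.0033). Its Sall1 ratio did not pass (-0.47 ± 0.18, adjusted p = 0.103). Eif3i ranged from 232 to 321 CPM (median 291.1) in Lyve1 HA and from 341 to 447.5 CPM (median 420.3) in Lyve1 IgG, again without overlap (-0.52 ± 0.13, adjusted p = 0.00362). Eif3g was higher in Lyve1 HA, at 241 to 341 CPM (median 283.6) against 148 to 238 CPM (median 209.1) in IgG (0.51 ± 0.14, adjusted p = 0.00937), and its HA libraries all lay above the IgG libraries. In the Sall1 line Eif3i was at -0.45 ± 0.13 (adjusted p = 0.0235) and Eif3g at 0.46 ± 0.14 (adjusted p = 0.0382). The Sall1 call of Eif3i was lost without Sall1 HA library 2-2 or Sall1 IgG library 1-1 or 1-2 (adjusted p up to 0.0833). That of Eif3g was lost without any one of Sall1 HA libraries 1-1, 1-2, 2-1 and 2-2 or Sall1 IgG libraries 1-1, 1-2, 3-1 and 3-2 (adjusted p up to 0.126). The lower Eif3b of Lyve1 HA (-0.33 ± 0.12, adjusted p = 0.0382) no longer passed without Lyve1 HA library 1-2, 2-1, 3-1 or 3-2 or Lyve1 IgG library 1-1, 1-2, 2-2 or 3-1 (adjusted p up to 0.10).

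**Figure D2:**
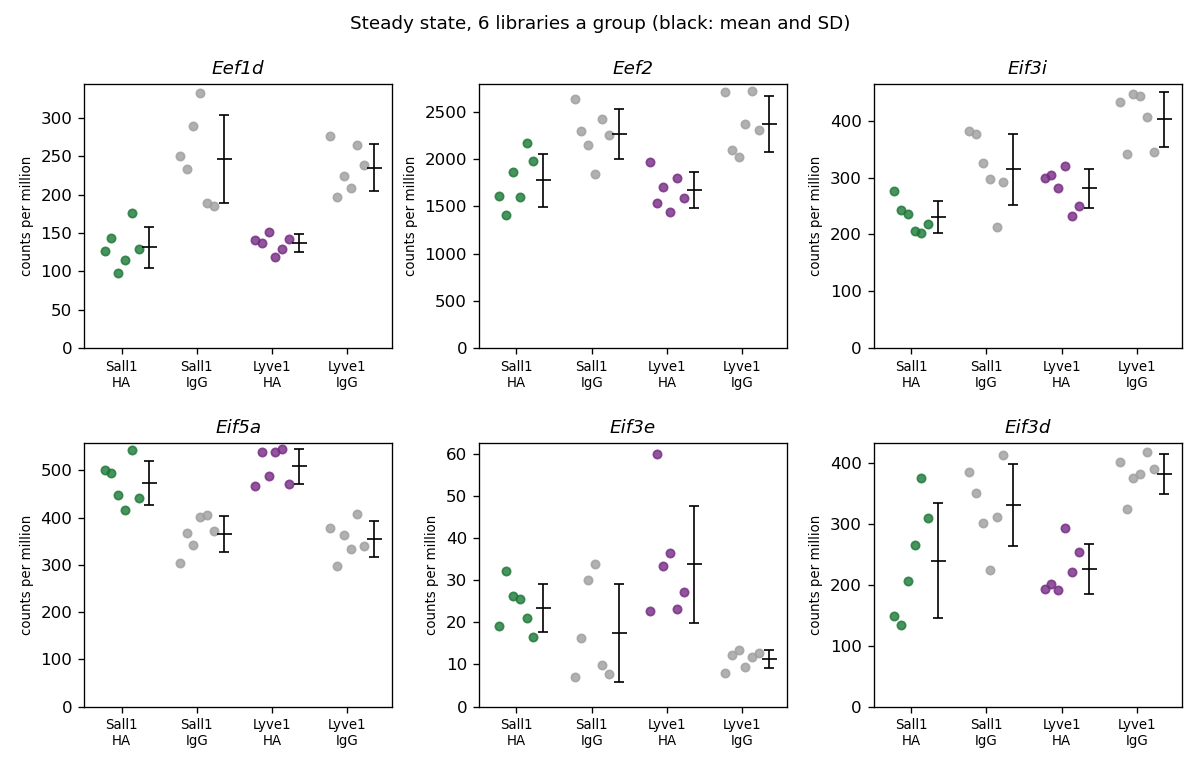
CPM in each steady-state library (points, 6 a group) of 6 factor genes, with the mean and SD in black, in HA and IgG precipitates of the Sall1 and Lyve1 lines. Eef1d lies lower in HA than in IgG without overlap in both lines, and Eif3e of Lyve1 HA lies above all Lyve1 IgG libraries, while Eif3e of Sall1 IgG spreads from 7.01 to 33.9 CPM.

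Of 4 tested factors of start codon selection, 3 were higher in Lyve1 HA and 0 lower, against 11.7% and 14% of all genes. Eif1, which opens the scanning ribosome, was at 503 to 812 CPM in Lyve1 HA (median 714.2) and 366.5 to 529 CPM in IgG (median 480.0), with overlap (0.57 ± 0.13, adjusted p = 0.00165). Eif1b, its paralogue, did not overlap between HA and IgG (0.46 ± 0.13, adjusted p = 0.00666). Eif5, the activator of GTP hydrolysis by eIF2, ranged from 63.8 to 88.9 CPM in Lyve1 HA (median 70.03) and from 35.5 to 63.0 CPM in IgG (median 50.42), without overlap (0.56 ± 0.17, adjusted p = 0.0157). In the Sall1 line only Eif1 of the 4 passed (0.44 ± 0.13, adjusted p = 0.0239), and this call was lost without Sall1 HA library 3-1 or Sall1 IgG library 1-1 or 1-2 (adjusted p from 0.0653 to 0.0791). Eif1, Eef1a1 and Eef2 have 3, 2 and 1 annotated pseudogenes named after them, and how reads shared with such copies were counted is not given in the sources used here.

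Eif5a, which frees ribosomes stalled on proline-rich stretches, was higher in HA without overlap in both lines. It ranged from 416 to 542 CPM in Sall1 HA (median 471.4) against 304 to 405 CPM in IgG (median 369.6). In the Lyve1 line it ranged from 467 to 546 CPM (median 514.4) against 298 to 408.5 CPM (median 352.3). The log2 ratios were 0.38 ± 0.11 (adjusted p = 0.0186) and 0.52 ± 0.11 (adjusted p = 0.000484). The Sall1 call was lost without Sall1 HA library 3-1 or Sall1 IgG library 1-1 (adjusted p from 0.0503 to 0.0796). Eif6, which keeps the ribosomal subunits apart, was lower in Lyve1 HA (-0.38 ± 0.12, adjusted p = 0.022), a call lost without Lyve1 HA library 3-1 or Lyve1 IgG library 2-2 (adjusted p up to 0.0677).

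Of the 5 genes for eIF2B, which recharges eIF2 with GTP, 1 was higher and 1 lower in Sall1 HA, and 0 passed in the Lyve1 line. Eif2b5, the catalytic subunit, ranged from 42.5 to 68.1 CPM in Sall1 HA (median 59.26) and from 71.0 to 88.2 CPM in IgG (median 80.90), without overlap (-0.50 ± 0.13, adjusted p = 0.0138), and no library left out ended this call. Eif2b4 was at 0.41 ± 0.13 (adjusted p = 0.0372), a call lost without Sall1 HA library 1-1, 3-1 or 3-2 or Sall1 IgG library 1-1, 1-2 or 2-1 (adjusted p up to 0.0969). Of the 4 eIF2 kinase genes, Eif2ak4 (GCN2, the sensor of uncharged tRNA) and Eif2ak1 (HRI, the haem-regulated kinase) were lower in Lyve1 HA. Eif2ak4 had 0 to 8 counts in the HA libraries and 4 to 14 in the IgG libraries (-1.14 ± 0.39, adjusted p = 0.0292). It no longer passed without Lyve1 HA library 1-2 or 2-2 or Lyve1 IgG library 2-1, 2-2 or 3-1 (-1.09 to -0.96). That of Eif2ak1 (-0.49 ± 0.18, adjusted p = 0.0445) was lost without any of 9 libraries, all but Lyve1 HA 1-1 and Lyve1 IgG 1-2 and 2-1 (adjusted p up to 0.164). Eif2ak2 did not pass, at 5.10 to 11.1 CPM in Lyve1 HA (median 7.593) and 3.48 to 11.1 CPM in Lyve1 IgG (median 6.589). Eef1e1, a scaffold protein of the tRNA synthetase complex rather than an elongation factor, was at 9.81 to 24.0 CPM in Lyve1 HA (median 17.83) and 6.32 to 12.2 CPM in IgG (median 9.371; 0.85 ± 0.32, adjusted p = 0.047). Its call was lost without any of 9 libraries, all but Lyve1 HA 2-1 and 2-2 and Lyve1 IgG 1-2 (adjusted p up to 0.128).

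None of the 10 tested eIF4 genes and none of the 3 genes for 4E-BPs passed between HA and IgG at steady state in the edgeR test, while limma-voom passed Eif4ebp1 and Eif3e in the Sall1 line (log2 1.07 and 0.86, adjusted p = 0.0452 and 0.0453) and Eif4e in the Lyve1 line (0.92, adjusted p = 0.0456). Eif4a1, the main helicase of the cap complex, ranged from 200 to 286 CPM in Lyve1 HA (median 234.3) and from 211 to 325 CPM in IgG (median 297.4; -0.26 ± 0.13, adjusted p = 0.153). Its paralogue Eif4a2 ranged from 30.8 to 59.8 CPM in Lyve1 HA (median 45.48) and from 26.1 to 40.5 CPM in IgG (median 32.20; 0.45 ± 0.28, adjusted p = 0.246). Eif4e, the cap-binding protein, ranged from 9.84 to 22.6 CPM in Lyve1 HA (median 13.83) and from 3.16 to 24.7 CPM in IgG (median 6.873). The value of 24.7 CPM was Lyve1 IgG library 2-1, and without it the log2 ratio of Eif4e passed (1.25, adjusted p = 0.0242). Eif4ebp1 had at most 13 counts in each Lyve1 library of the steady state and did not pass (0.32 ± 0.38, adjusted p = 0.565).

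The ribosomal protein genes were counted in the same comparisons, and those that passed were all higher in HA, whereas the factors split by direction. Of 77 tested, 8 were higher and 0 lower in Sall1 HA than in IgG, and 27 were higher and 0 lower in Lyve1 HA, with median log2 ratios of 0.27 and 0.53. In the Lyve1 line, 9 of 19 tested cytosolic tRNA synthetase genes were lower in HA and 0 higher, led by Mars (-1.11 ± 0.16, adjusted p = 1.16e-05), Tars (-0.65 ± 0.12) and Wars (-0.63 ± 0.13). A signalling list of 14 tested genes held mostly genes of the mTOR pathway, with other signalling to the factors. Of these, 6 were lower in Lyve1 HA and 0 higher. The lower ones included Rptor (-1.21 ± 0.16, adjusted p = 3e-06), Tsc2 (-0.86 ± 0.18) and Mlst8 (-0.71 ± 0.17). Rptor was also lower in Sall1 HA (-0.65 ± 0.15, adjusted p = 0.0058), the only one of the 14 to pass there. A further list of 14 tested genes held termination and recycling factors together with poly(A)-binding proteins and regulators of initiation. Of these, 2 were higher in Lyve1 HA, the poly(A)-binding protein regulator Paip2 (0.78 ± 0.17, adjusted p = 0.00135) and the initiation inhibitor Pdcd4 (0.74 ± 0.20, adjusted p = 0.00753). In the mitochondrial translation list, Gfm1 (-0.72 ± 0.20, adjusted p = 0.00842) and Gfm2 (-0.92 ± 0.20, adjusted p = 0.00104) were lower in Lyve1 HA, and Gfm2 in Sall1 HA (-0.65 ± 0.19, adjusted p = 0.0272).

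Other groupings of the libraries limit these steady-state calls. With the counts of libraries that share a first number summed to 3 samples a group, 1 member passed in the Sall1 line (Eef1d) and 5 in the Lyve1 line, of which Eif3e, Eef1d, Eif5a and Eif3d also passed above. Without the Sall1 libraries whose first number is 1 or 2, which hold the Y-linked counts, 0 members passed in the Sall1 line. Eef1d was then at -0.29 (adjusted p = 0.558), with 2 libraries a group. The shares of all genes called in these groupings are not given here.

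The direct comparison of the lines asked whether microglia and border macrophages differ in factor mRNAs on their ribosomes. Of 52 members, 0 passed between Sall1 HA and Lyve1 HA in the edgeR test, against 1.4% of all genes (1.24% higher and 0.166% lower), and 9 had an unadjusted p under 0.05, 8 of them lower in Sall1 HA, as did 1501 of 9619 genes in either direction. DESeq2 passed 1 member and limma-voom 2, and the shares of all genes called by these tests are not given here. The members with the lowest ratios were Eif3m (-0.85 ± 0.24, adjusted p = 0.0728), Eif2b3 (-0.84 ± 0.36, adjusted p = 0.252) and Eif4a2 (-0.83 ± 0.29, adjusted p = 0.174). Eef1a1 was at -0.49 ± 0.16 (adjusted p = 0.156) and passed with limma-voom (-0.64, adjusted p = 0.0174), without Sall1 HA library 3-1 (-0.64, adjusted p = 0.0227) and without the Sall1 libraries whose first number is 3 (-0.69, adjusted p = 0.0151). Without those whose first number is 1 or 2, Eif4a2 passed (-1.56, adjusted p = 0.00561) and 4 members in all. In the same comparison 8 of 9 tested microglial markers were higher and 2 of 3 tested border macrophage markers were lower in Sall1 HA.

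Between the IgG libraries of the lines, 0 members and 0 of 9619 genes (0%) passed in edgeR. At an unadjusted p under 0.05 there were 3 members and 644 genes, DESeq2 passed 14 genes and 0 members, and limma-voom passed 0. For the difference of the HA to IgG ratios between the lines, 0 members passed against 0.218% of all genes (0.208% higher and 0.0104% lower), and 2 had an unadjusted p under 0.05, as did 587 of 9619 genes. DESeq2 and limma-voom passed 0 members too. The largest differences were those of Eif3e (-1.02 ± 0.45, adjusted p = 0.76) and Eif3m (-0.78 ± 0.35, adjusted p = 0.76), lower in the Sall1 line by estimates with wide errors, so the contrast between a passing Eif3e in the Lyve1 line and a failing one in the Sall1 line was not itself a detected difference.

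LPS was compared with the steady state separately in HA and in IgG of the Lyve1 line, to ask how an inflammatory stimulus changes factor mRNAs on tagged ribosomes and in the tissue background. In HA, 5 members rose and 4 fell of 54 tested, against a background of 17.5% of all genes (9.46% higher and 8% lower). In IgG, 13 rose and 2 fell, against 13.4% of all genes (6.92% higher and 6.44% lower). The median log2 ratio of the members was 0.05 in HA and 0.14 in IgG, against -0.02 and 0.01 for all genes. Here too, counts for role classes and lists are to be read against these shares, and none was tested as a set. Since the LPS libraries also carry the Y-linked counts, each difference below holds for both at once.

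**Figure D3:**
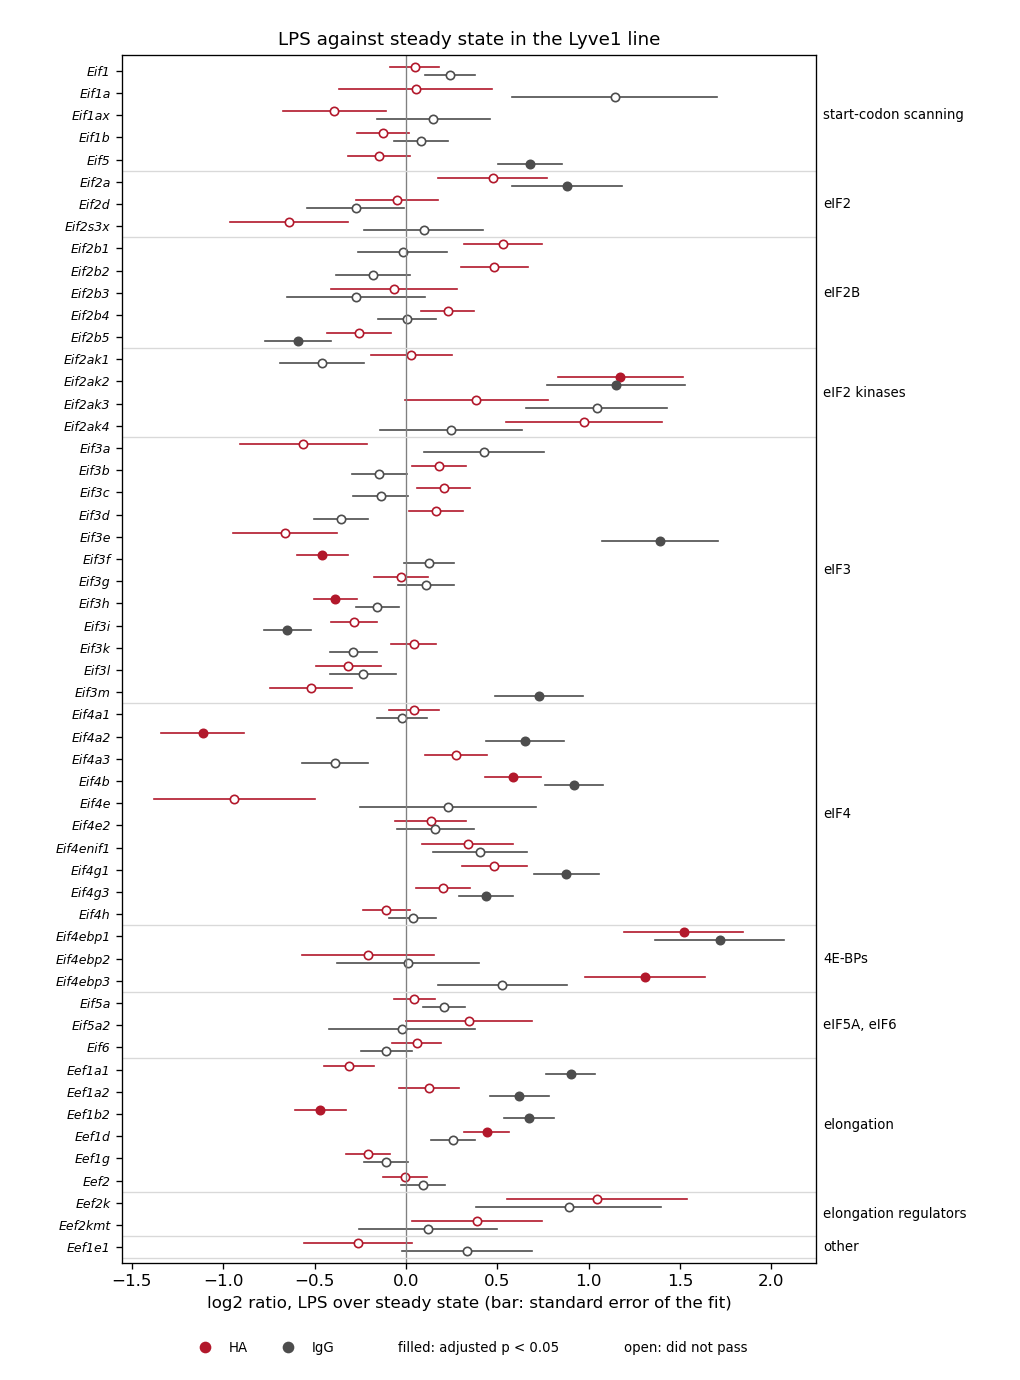
Log2 ratio of LPS over steady state for the 54 tested members in the Lyve1 line, grouped by role, in HA (red) and IgG (grey), with bars for the standard error of the fit and filled points for an adjusted p under 0.05. Eif4ebp1, Eif2ak2 and Eif4b lie to the right in both, whereas Eif4a2 and Eef1b2 lie left of zero in HA and right of zero in IgG.

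The 3 largest increases among the members that passed in HA were those of genes for inhibitors of initiation, Eif4ebp1, Eif4ebp3 and Eif2ak2. Eif4ebp1, which encodes the eIF4E-binding repressor 4E-BP1, ranged from 1.65 to 9.43 CPM in steady-state HA (median 7.654) and was at 24.6, 14.9, 22.4 and 18.1 CPM in the 4 HA libraries after LPS. In IgG it ranged from 1.12 to 10.2 CPM (median 5.335) and was at 15.9, 17.0, 20.8 and 18.6 CPM after LPS. In both precipitates every library after LPS lay above every steady-state library. The log2 ratios were 1.52 ± 0.32 in HA (adjusted p = 0.00101) and 1.72 ± 0.35 in IgG (adjusted p = 0.000799), on 1 to 13 counts per steady-state library and 6 to 31 after LPS.

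Eif4ebp3, for 4E-BP3, rose in HA, from 4.95 to 10.6 CPM (median 8.033) to 9.02, 22.8, 21.0 and 34.7 CPM, so that 1 library after LPS lay within the steady-state range (1.31 ± 0.33, adjusted p = 0.00507). It did not pass in IgG (0.53 ± 0.35, adjusted p = 0.363). The HA to IgG ratio of Eif4ebp3 did not differ detectably between LPS and steady state (difference 0.78 ± 0.48, adjusted p = 0.364). Eif4ebp2, for the 4E-BP prominent in brain, did not pass in either (-0.21 ± 0.36 and 0.01 ± 0.39, adjusted p = 0.735 and 0.991).

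**Figure D4:**
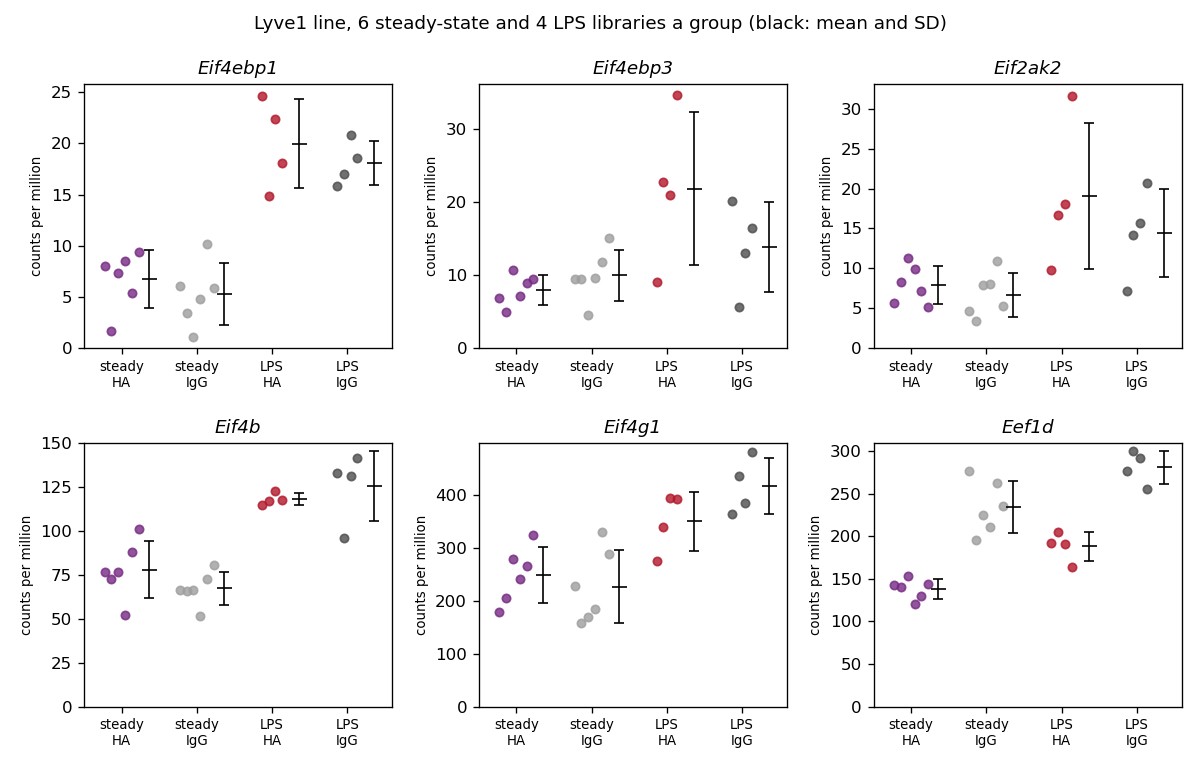
CPM in each Lyve1 library (points) of 6 factor genes, with the mean and SD in black, in HA and IgG at steady state (6 libraries each) and after LPS (4 each). Eif4ebp1 and Eif4b after LPS lie above all steady-state libraries of the same precipitate, and Eif4ebp3 and Eif2ak2 spread widely after LPS.

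Eif2ak2, the kinase gene whose promoter letters are shown above, ranged from 5.14 to 11.3 CPM in steady-state HA (median 7.718) and was at 9.84, 16.6, 18.1 and 31.6 CPM after LPS. In IgG it ranged from 3.46 to 10.97 CPM (median 6.548) and was at 7.22, 14.2, 15.6 and 20.6 CPM after LPS. In each precipitate 1 library after LPS lay within the steady-state range. The log2 ratios were 1.17 ± 0.34 in HA (adjusted p = 0.0158) and 1.15 ± 0.38 in IgG (adjusted p = 0.0369). The HA call was lost without LPS HA library 2-2 (0.90, adjusted p = 0.0918), and the IgG call without Lyve1 IgG library 1-1, 1-2 or 3-2 or LPS IgG library 1-2, 2-1 or 2-2 (0.86 to 1.16, adjusted p up to 0.256). None of the other 3 eIF2 kinase genes passed, with Eif2ak3, for PERK, at 1.04 ± 0.38 in IgG (adjusted p = 0.0663) and Eif2ak4 at 0.98 ± 0.43 in HA (adjusted p = 0.112).

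Of the 10 tested eIF4 genes, 1 rose and 1 fell in HA and 4 rose in IgG. Eif4b, which stimulates the eIF4A helicase, rose in both. It ranged from 52.4 to 101.2 CPM in steady-state HA (median 76.49) and was at 114.8, 117, 123 and 117.5 CPM after LPS, without overlap (0.59 ± 0.15, adjusted p = 0.00701). In IgG it ranged from 51.8 to 80.4 CPM (median 66.44) and was at 133, 96.3, 132 and 141 CPM after LPS, also without overlap (0.92 ± 0.16, adjusted p = 6.39e-05). Eif4g1, the scaffold of the cap complex, rose in IgG from 158 to 329 CPM (median 206.2) to 364, 436, 386 and 482 CPM, without overlap (0.88 ± 0.18, adjusted p = 0.000962). In HA it was at 178 to 325 CPM (median 252.9) and at 275, 339, 394.5 and 392 CPM after LPS (0.48 ± 0.18, adjusted p = 0.0589). Eif4g3 rose in IgG (0.44 ± 0.15, adjusted p = 0.0417), a call lost without any of 8 libraries, all but Lyve1 IgG 3-1 and 3-2 (adjusted p up to 0.13).

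The 2 eIF4A genes parted. Eif4a1 did not pass in HA or IgG (0.04 ± 0.14 and -0.02 ± 0.14, adjusted p = 0.858 and 0.947), at 201 to 290.2 CPM in steady-state HA (median 237.0) and 260, 219, 218 and 310 CPM after LPS. Eif4a2 fell in HA from 31.2 to 60.5 CPM (median 46.15) to 29.5, 15.8, 16.6 and 22.6 CPM. All 4 libraries after LPS lay below all 6 of the steady state (-1.11 ± 0.23, adjusted p = 0.000628). In IgG it went the other way, from 25.9 to 39.9 CPM (median 32.20) to 49.1, 53.8, 59.9 and 44.4 CPM, without overlap (0.65 ± 0.21, adjusted p = 0.0378). That IgG call was lost without any of 7 libraries (Lyve1 IgG 1-2, 2-1 and 2-2 and each LPS IgG library, 0.53 to 0.72, adjusted p up to 0.179). Eif4e did not pass, at 9.98 to 23.1 CPM in steady-state HA (median 13.96) and 12.3, 2.63, 5.07 and 12.1 CPM after LPS (-0.94 ± 0.44, adjusted p = 0.142).

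Among the elongation factors, Eef1d rose in HA from 120 to 154 CPM (median 141.4) to 193, 205, 190 and 164 CPM, without overlap (0.44 ± 0.12, adjusted p = 0.012), and did not pass in IgG (0.26 ± 0.12, adjusted p = 0.17). With counts summed over libraries sharing a first number, its HA call was lost (0.43, adjusted p = 0.0521). Eef1b2, for the beta subunit of the exchange complex, fell in HA from 267 to 402.5 CPM (median 321.0) to 234, 228, 278 and 202 CPM (-0.47 ± 0.14, adjusted p = 0.0176). This call was lost without Lyve1 HA library 1-2 or LPS HA library 1-2 or 2-2 (-0.44 to -0.39, adjusted p up to 0.0783). In IgG, Eef1b2 rose from 219 to 327.5 CPM (median 277.6) to 414, 549, 403 and 375 CPM, without overlap (0.67 ± 0.14, adjusted p = 0.000635).

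Both eEF1A genes rose in IgG. Eef1a1 went from 229 to 358 CPM (median 298.1) to 611, 518, 526 and 566 CPM, without overlap (0.90 ± 0.13, adjusted p = 8.1e-06). Eef1a2 went from 754 to 1586 CPM (median 1290) to 1679, 2316, 1591 and 1937 CPM (0.62 ± 0.16, adjusted p = 0.00907), a call lost without LPS IgG library 1-2 (0.51, adjusted p = 0.056). In HA, Eef1a1 was at 337 to 543 CPM (median 469.0) and at 340.2, 410, 341 and 359 CPM after LPS (-0.31 ± 0.14, adjusted p = 0.116), and Eef1a2 was at 0.13 ± 0.16 (adjusted p = 0.636). Eef2 did not pass in either precipitate (-0.005 ± 0.12 in HA, adjusted p = 0.984, and 0.09 ± 0.12 in IgG, adjusted p = 0.68).

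Of the 12 eIF3 genes, 2 fell in HA and 2 rose and 1 fell in IgG. Eif3e rose in IgG from 8.07 to 13.5 CPM (median 11.93) to 34.6, 42.5, 32.6 and 14.4 CPM, all above the steady-state libraries (1.39 ± 0.32, adjusted p = 0.00238). In HA it was at 22.8 to 61.0 CPM (median 30.69) and at 31.2, 14.9, 14.5 and 24.1 CPM after LPS (-0.66 ± 0.28, adjusted p = 0.104), and it passed as lower without LPS HA library 1-1 (-0.95, adjusted p = 0.0231). Eif3m in IgG went from 17.98 to 30.7 CPM (median 23.90) to 37.5, 31.1, 43.0 and 45.4 CPM, without overlap (0.73 ± 0.24, adjusted p = 0.0368). Its call was lost without Lyve1 IgG library 1-1, 1-2 or 2-1 or LPS IgG library 1-1, 2-1 or 2-2 (0.64 to 0.76, adjusted p up to 0.154). Eif3i fell in IgG from 339 to 448 CPM (median 418.7) to 253, 258, 264.5 and 248.7 CPM, without overlap (-0.65 ± 0.13, adjusted p = 0.000498), and was at -0.29 ± 0.13 in HA (adjusted p = 0.116).

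Eif3f and Eif3h fell in HA (-0.46 ± 0.14 and -0.39 ± 0.12, adjusted p = 0.0207 and 0.0218). Eif3f no longer passed without Lyve1 HA library 1-1 or 2-2 or LPS HA library 1-2 or 2-1, and Eif3h without Lyve1 HA library 1-1 or 3-1 or LPS HA library 2-1 (-0.45 to -0.37 and -0.36 to -0.34, adjusted p up to 0.0729 and 0.0744). Among the remaining members, Eif5 rose in IgG from 35.9 to 62.1 CPM (median 50.20) to 72.2, 79.3, 70.4 and 88.8 CPM (0.68 ± 0.18, adjusted p = 0.00763), a call lost without LPS IgG library 2-2 (0.58, adjusted p = 0.0633). Eif2a, which encodes an initiator tRNA-binding protein outside the eIF2 complex, rose in IgG (0.88 ± 0.30, adjusted p = 0.0468), and Eif2b5 fell there (-0.59 ± 0.18, adjusted p = 0.026). The call of Eif2a was lost without any of 8 libraries, all but Lyve1 IgG 1-2 and 3-2 (0.59 to 0.96, adjusted p up to 0.326), and that of Eif2b5 without Lyve1 IgG library 2-2 or LPS IgG library 1-2 or 2-2 (adjusted p up to 0.107).

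After LPS, HA was again compared with IgG. Of the marker lists, 2 of 5 tested border macrophage markers passed as higher in HA (median log2 ratio 1.23). So did 6 of 8 tested microglial markers (median 1.04) and 2 of 4 endothelial markers. Of 8 neuronal markers, 3 were lower and 0 higher, and 0 astrocyte and 0 oligodendrocyte markers passed. The part of these cells in the factor ratios below was not tested. Of 54 members, 9 passed, 4 higher and 5 lower in HA, against a background of 9.62% (5.22% higher and 4.4% lower). The 5 lower ones were Eif4a2 and 4 of the 6 elongation factor genes. Eif4a2 lay at 15.8 to 29.5 CPM in HA and 44.4 to 59.9 CPM in IgG (-1.29 ± 0.25, adjusted p = 0.000854). Eef1b2 lay at 202 to 278 CPM against 375 to 549 CPM (-0.87 ± 0.15, adjusted p = 0.000291), and Eef1a1 at 340.2 to 410 CPM against 518 to 611 CPM (-0.62 ± 0.15, adjusted p = 0.00663). Eef2 was at 1610, 1630, 1416 and 2109 CPM in HA and 2614, 2859, 2283 and 2343 CPM in IgG (-0.58 ± 0.13, adjusted p = 0.00461). Eef1d was at -0.57 ± 0.14 (adjusted p = 0.00533). All 5 separated HA from IgG without overlap, and no library left out ended their calls. They were picked by a test on the same libraries, so the lack of overlap is no separate support. It was not counted over all genes. With counts summed over libraries sharing a first number, which leaves 2 samples a group, the call of Eef1a1 was lost (-0.65, adjusted p = 0.0505).

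The 4 higher members were Eif3k (0.56 ± 0.14, adjusted p = 0.00781), Eif2b2 (0.67 ± 0.22, adjusted p = 0.0431), Eif2b4 (0.55 ± 0.17, adjusted p = 0.0335) and Eif5a (0.38 ± 0.13, adjusted p = 0.0478). Eif3k was at 343.5, 433, 382 and 478 CPM in HA and 274, 260.4, 293 and 277 CPM in IgG, without overlap. Eif2b2 was at 59.8, 55.1, 47.8 and 79.8 CPM in HA and 40.4, 34.0, 32.6 and 41.3 CPM in IgG, without overlap. Eif2b4 was at 113, 127, 124.5 and 160 CPM against 80.8, 125, 73.0 and 86.7 CPM, with 1 IgG library inside the HA range. The calls of Eif2b2 and Eif5a were each lost without any of 7 libraries, all but LPS HA 2-1 for Eif2b2 and all but LPS HA 1-2 for Eif5a (adjusted p up to 0.135 and 0.152). That of Eif2b4 was lost without LPS HA library 1-2 or 2-2 or LPS IgG library 1-1, 2-1 or 2-2 (adjusted p up to 0.139), and that of Eif3k with summed counts (0.53, adjusted p = 0.0637).

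The HA to IgG ratio itself was then compared between LPS and steady state. It was lower after LPS for 5 members and higher for 0 of 54, against a background of 3.23% of all genes (1.64% higher and 1.59% lower). For Eif3e the ratio went from 1.55 ± 0.32 at steady state to -0.49 ± 0.33 after LPS on the log2 scale, a difference of -2.05 ± 0.43 (adjusted p = 0.00752). The steady-state ratios are those of the steady-state table and the differences were fitted within the LPS table, so the values need not subtract exactly. Eif4a2 went from 0.45 ± 0.28 to -1.29 ± 0.25 (difference -1.76 ± 0.31, adjusted p = 0.00218), and Eef1a1 from 0.57 ± 0.16 to -0.62 ± 0.15 (difference -1.21 ± 0.19, adjusted p = 0.00116). Eef1b2 went from 0.25 ± 0.14 to -0.87 ± 0.15 (difference -1.14 ± 0.19, adjusted p = 0.00186). For these 4 genes no library left out ended the call. Eif3m went from 0.88 ± 0.24 to -0.34 ± 0.26 (difference -1.25 ± 0.33, adjusted p = 0.0283). This difference no longer passed without Lyve1 HA library 2-1, Lyve1 IgG library 1-1, LPS HA library 1-2 or 2-2, or LPS IgG library 2-1 or 2-2 (-1.19 to -1.08, adjusted p up to 0.0916). All 5 genes rose with LPS in IgG, while Eif4a2 and Eef1b2 alone of the 5 passed as lower in HA, with Eif3m at -0.52 ± 0.22 there (adjusted p = 0.105). These comparisons share libraries, so the values are given side by side and not as separate evidence.

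**Figure D5:**
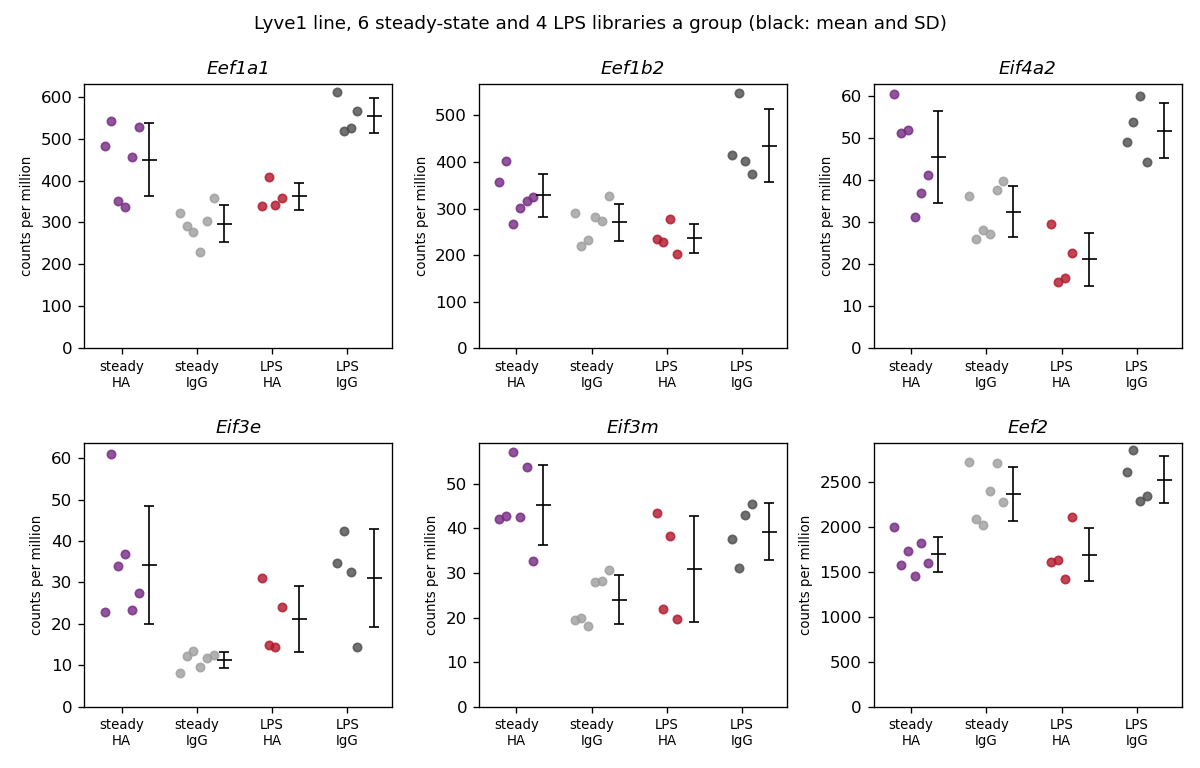
CPM in each Lyve1 library (points), with the mean and SD in black, of the 5 members whose HA to IgG ratio was lower after LPS and of Eef2 for comparison. In Eef1a1, Eef1b2 and Eif4a2 the HA points lie below the IgG points after LPS without overlap, and in Eef2 HA lies below IgG in both conditions.

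Neighbouring genes of the translation machinery were counted in the same contrasts. Of 77 tested ribosomal protein genes, 26 fell and 2 rose in HA with LPS, 8 rose and 0 fell in IgG, and the HA to IgG ratio was lower after LPS for 16 and higher for 0, with a median difference of -0.54 against -0.01 for all genes. TOP genes were listed from general knowledge, not from the windows shown above. There Eef1b2 held no marked run, and Eif3e had no window. Of 7 tested genes on the TOP list outside the factors and the ribosome, 3 had a lower ratio after LPS and 0 a higher one. They were Nap1l1 (-1.34 ± 0.25, adjusted p = 0.00257), the poly(A)-binding protein gene Pabpc1 (-1.20 ± 0.25, adjusted p = 0.00739) and Npm1 (-1.83 ± 0.47, adjusted p = 0.038). Of the 9 members on the TOP list, 3 had a lower ratio (Eef1a1, Eef1b2, Eif3e). So did 2 of the 45 other members tested (Eif4a2, Eif3m), and the 2 shares were not compared by a test. In contrast, 3 of 19 tRNA synthetase genes had a higher ratio after LPS and 0 a lower one, Gars (1.09 ± 0.20, adjusted p = 0.00257), Mars (1.21 ± 0.26, adjusted p = 0.00897) and Wars (0.70 ± 0.17, adjusted p = 0.0152), and 5 of them rose in HA with LPS.

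Of 14 tested genes of the signalling list, 3 rose and 1 fell in HA with LPS, and 1 rose and 1 fell in IgG. The mTOR inhibitor gene Ddit4 rose in HA (0.78 ± 0.12, adjusted p = 1.17e-05) and in IgG (0.91 ± 0.12, adjusted p = 8.16e-07), Rps6kb2 rose in HA (1.41 ± 0.26, adjusted p = 0.000297), and Rheb, the activator of mTOR, fell in HA (-1.05 ± 0.20, adjusted p = 0.000336). The other gene that rose in HA was Mtor, named after its value was seen, and Rptor fell in IgG (-0.50 ± 0.13, adjusted p = 0.00969). Of 9 tested stress response genes, 3 rose and 1 fell in HA, with Nupr1 at 1.11 ± 0.19 (adjusted p = 8.99e-05), the eIF2 phosphatase subunit gene Ppp1r15b at 0.71 ± 0.19 (adjusted p = 0.00946) and Asns at -0.59 ± 0.21 (adjusted p = 0.0444). In IgG, Nupr1 (1.16 ± 0.22, adjusted p = 0.000245) and Ppp1r15a (0.92 ± 0.24, adjusted p = 0.00889) rose. Of the 14 genes in the mixed list of termination, recycling and poly(A)-binding genes, 4 fell in HA, among them Gspt2 (-1.57 ± 0.39, adjusted p = 0.00502), Paip2 (-0.82 ± 0.22) and Etf1 (-0.93 ± 0.25). These lists overlap with the others in Rps6 and Pabpc1.

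Markers of other cells moved in the same libraries. In HA, 3 of 4 endothelial markers, 2 of 4 astrocyte markers and 3 of 8 tested microglial markers rose with LPS, and 2 of 4 oligodendrocyte markers fell. In IgG, 2 of 4 endothelial markers, 1 of 4 astrocyte markers, 1 of 8 neuronal markers and 3 of 8 tested microglial markers rose, and 2 microglial markers and 1 of 4 oligodendrocyte markers fell. The 4 astrocyte markers summed to between 243 and 467 CPM in steady-state HA and between 885 and 1232 CPM after LPS, and in IgG to between 250.4 and 335 CPM and between 863 and 1103 CPM. Gfap made up most of that sum after LPS. Gfap, an intermediate filament gene of astrocytes, went from between 109 and 277 CPM to between 621 and 1106 CPM in HA (2.30 ± 0.20, adjusted p = 4.78e-09) and from between 107 and 171.5 CPM to between 661 and 894 CPM in IgG (2.51 ± 0.20, adjusted p = 1.46e-09). The 10 microglial markers summed to between 873 and 1448 CPM in steady-state HA and between 1753 and 2275 CPM after LPS, with P2ry12 at 0 counts in all LPS IgG libraries, while the 8 border macrophage markers summed to between 77.6 and 211 CPM and between 102 and 134 CPM. The 3 microglial markers that rose in HA were the complement genes C1qa (1.26 ± 0.17), C1qb (1.12 ± 0.22) and C1qc (0.87 ± 0.15), with C1qa between 294 and 515 CPM before and between 753 and 1076 CPM after LPS, whereas the other 5 tested lay between -0.53 and 0.45 on the log2 scale and did not pass. In IgG the same 3 rose, and Trem2 (-1.22 ± 0.30) and Csf1r (-0.58 ± 0.20) fell. The 8 neuronal markers summed to between 3693 and 5311 CPM in HA after LPS, against 5204 to 5641 CPM before. Their part in the changes of the factor genes was not tested.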

How the data were processed

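Raw counts per gene were taken as deposited by the authors in 2 tables, one of Sall1 and Lyve1 libraries at steady state and one of Lyve1 libraries with and without LPS; the column headers mark them as raw. The tables share the 12 steady-state Lyve1 libraries with equal counts and were analysed separately. Libraries were made by a 3′-end RNA-seq protocol (MARS-seq), per the labels' protocols. The build was mm9, per the submitters' processing notes, and the aligner and counter are not given in the sources used here. The deposited tables list no gene whose highest count is below 6. The authors' normalized values and test columns, and 28 library columns that match no sample used here, were not used.

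Genes were filtered with filterByExpr (minimum count 10, minimum total 15), which left 9619 and 9680 genes and 99% of counts, scaled by TMM and tested with edgeR 4.0.16 (R 4.3.3) by the robust quasi-likelihood test, with 4 groups of a table in each fit and p-values adjusted by Benjamini-Hochberg over all genes tested. The threshold was 0.05, and 9 comparisons were made. CPM are counts divided by the TMM-scaled library total, not by gene length. Standard errors are the log2 ratio divided by the square root of F. Alternatives were no filter, other scalings, DESeq2 1.42.0, limma-voom (limma 3.58.1), summed libraries, a replicate block, the compared groups alone, and libraries left out. The procedure was tested on simulated data.

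The members and gene lists were chosen with earlier results of these data known, so no list is independent support. Values were given for up to 10 members per contrast and direction with the smallest p among those past the threshold with a log2 ratio of at least 0.5 in size, for a set of abundant or much studied members, and for up to 3 genes per neighbouring list. Other members that passed were named afterwards to account for each call. Overlap between groups was read for the members only, in the libraries that gave the calls, so it is no separate support. All 57 symbols are current in RefSeq. Eif2s1 was not analysed here. Sequences are RefSeq's, on GRCm38.p6, a build other than that of the counts.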

Additional observations from a re-analysis of the deposited data

Results flagged for a closer look

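Of 162 combinations of a named gene and a group examined, 5 had 1 library far from the others. Chance alone flags a small share of such groups, and the 5 were not shown to exceed it. Eef1b2 stood at 294.52 CPM in Sall1 HA library 3-2, where the others lay between 214.00 and 243.32 CPM. Eif2ak2 stood at 13.89 CPM in Sall1 IgG library 2-1 (others 5.65 to 7.35 CPM), and Eif3e at 59.83 CPM in Lyve1 HA library 1-2 (others 22.57 to 36.44 CPM). Eif4a1 was low in Lyve1 IgG library 3-2, at 210.96 CPM (others 287.87 to 324.92 CPM). Eif4e was high in Lyve1 IgG library 2-1, at 24.73 CPM (others 3.16 to 7.83 CPM).

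The HA to IgG ratio of 5 members differed between LPS and steady state by a test of the difference itself. On the log2 scale the differences were -2.05 for Eif3e, -1.76 for Eif4a2, -1.25 for Eif3m, -1.21 for Eef1a1 and -1.14 for Eef1b2, all lower after LPS. LPS and the Y-linked counts of the libraries cannot be told apart in these differences.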

How the results depend on the processing

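Of the counts of members called, the Sall1 HA to IgG count of 8 moved to 1 with libraries of one first number summed, to 2 with only the compared groups fitted, to 0 without the libraries whose first number is 1 or 2, and to between 2 and 9 with single libraries left out; it was 2 without Sall1 IgG library 1-1, 3 without Sall1 IgG library 1-2, and 5 without Sall1 HA library 1-1 or 2-2. The count of 0 between Sall1 HA and Lyve1 HA moved to 1 with DESeq2, 2 with limma-voom, 1 without the Sall1 libraries whose first number is 3, 4 without those numbered 1 or 2, and between 0 and 1 with single libraries left out (1 without Sall1 HA library 1-2 or 3-1). Between the IgG groups of the lines, 1 member passed without the Sall1 libraries numbered 1 or 2. Summed libraries gave 5 in place of 18 for Lyve1 HA over IgG, 4 in place of 9 after LPS, and 4 in place of 9 for LPS in HA. For LPS in IgG, single libraries left out gave between 9 and 15, with 9 without LPS IgG library 1-2 or 2-2. The summed and left-out settings hold fewer samples, and for the other settings the cause was not tested. The shares of all genes called in these settings and with the replicate block are not given here. The counts therefore do not show whether members moved more than other genes. No named ratio changed sign past the threshold.

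Library numbers recur across groups. Deviations of same-numbered HA and IgG libraries correlated between -0.10 and 0.35, and 5 of 12 and 4 of 10 libraries correlated best with their own number. Among Sall1 libraries, the Y-linked counts followed the first number alike in HA and IgG. The labels do not pair the libraries, so they were compared as unpaired, but these values do not exclude pairing. With a replicate block of same-numbered HA and IgG libraries, 10 members passed for Sall1 and 17 for Lyve1 HA over IgG, and 10 after LPS. With it, 7 passed for the change of the ratio with LPS and 0 for its difference between the lines. In comparisons across lines or conditions, the block matched column numbers of different mice, which are not pairs. There, 4 members passed between Sall1 HA and Lyve1 HA (among them Eef1a1 at -0.54, adjusted p = 0.0395, and Eif4a2 at -0.88, adjusted p = 0.0221). For LPS, 6 passed in HA and 15 in IgG, and 0 passed between the IgG groups of the lines.

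Within a group, deviations of Sall1 IgG libraries that share a first number correlated across genes at 0.22 to 0.40, against -0.49 to 0.0065 for the other pairs, so these libraries may not be separate samples, and the summed setting counts them as 1. In Sall1 HA the ranges were -0.10 to 0.16 and -0.56 to 0.03, in Lyve1 HA -0.11 to 0.29 and -0.44 to -0.11, in Lyve1 IgG -0.08 to 0.17 and -0.45 to 0.05, in LPS HA -0.52 to -0.39 and -0.68 to 0.11, and in LPS IgG -0.36 to -0.06 and -0.51 to -0.25.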
